A study of Mus musculus with 13 samples.

Results

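Transcripts of the proteasome were followed in whole quadriceps muscle of mice, gene by gene. The genes were chosen by name: every gene called Psma, Psmb, Psmc, Psmd or Psme with a number, without pseudogenes and without the inducible subunits Psmb8 and Psmb9, that reached 1 TPM (a level scaled for transcript length and library) in at least 3 of the 13 libraries. Of 24015 genes in the table, 41 met this rule, among 11876 genes that passed the same filter on level. Another 2 names fell out at the filter: Psma8, the testis form of an alpha subunit, reached at most 0.33 TPM, and Psmb11, the thymus form of a beta subunit, was listed at 0 in every library. The name rule also took in Psmc3ip, a DNA recombination protein (Hop2) that is no subunit, and Psme2b, a copy of Psme2 whose reads may be shared with it. Without these, 39 subunits, assembly chaperones and activators remained.

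The mice were C57BL/6, and RNA was extracted from whole muscle lysates and sequenced after TruSeq RNA v2 preparation. Young mice of 3 months and aged mice of over 24 months received vehicle by daily intraperitoneal injection for 4 weeks, with 4 young and 3 aged libraries in batch 1. In batch 2, aged mice of over 24 months received either vehicle or 5 mg/kg of SW033291, which inhibits 15-PGDH, an enzyme that breaks down prostaglandin E2, over the same 4 weeks, with 3 libraries each. The labels give no sex and do not state that each library is a separate animal, so p-values here measure the spread between these libraries, which may in part be technical. No genotype other than C57BL/6 was given, and no young mice received SW033291.

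The proteasome is the main protease of the cytosol and nucleus. Its barrel, the 20S core, stacks rings of alpha subunits, which form the gate, around rings of beta subunits, which carry the proteolytic sites. The 19S regulatory particle caps the barrel: its base holds the ATPases that unfold proteins and its lid removes ubiquitin chains. In skeletal muscle the ubiquitin-proteasome pathway breaks down contractile proteins, and the transcription factor Nfe2l1 (NRF1) raises the genes of the subunits together when proteolysis falls short.

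The promoters were searched for motifs of known factors. RefSeq promoters of GRCm38.p6, taken as the 250 bases before each gene's start, were matched by symbol to 35 of the 41 genes. Psmb1, Psmb2, Psmb7, Psmc3, Psmd3 and Psmd7 were not matched. The core letters bound by ETS factors, CCGGAA on either strand, were in 16 of the 35 promoters (45.7%) and in 13.6% of the promoters of all 27025 genes in the table. The antioxidant response element TGACNNNGC, the kind of site that Nfe2l1 and Nfe2l2 bind with small Maf proteins, was in 5 (14.3%), against 11.5% of all promoters. CCAAT was in 13 (37.1%) against 37.5%. Of the other motifs searched on both strands, the cAMP response element TGACGTCA was in none (1.77% of all promoters), the site of nuclear respiratory factor 1 in Psma2 alone (0.877%), an interferon-type element in 3 (3.46%), and the sites of YY1 and NF-kappaB in none (0.248% and 0.159%). The median GC content was 58.4% in the 35 promoters and 52.8% in all promoters, and the part of base composition in these shares was not tested. The motifs were chosen after expression values had been seen, and a match of letters is not a bound site.

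The stretches below belong to genes picked after the values of the comparisons that follow were seen. In the fit of all 13 libraries in 4 groups, only Psmd2 of them had a limma adjusted p under 0.05, in the comparison of the batches. The capitals mark the ETS core or its complement. It was in the promoters of 5 of the 7 genes whose values did not overlap between the batches (Psma5, Psmc1, Psmd2, Psmd6 and Psmd12), and not in those of Psmd1 and Psmd14. The activator Psme4, whose batches overlapped, is also shown, and its stretch holds the core at 2 places. Of all 35 promoters 16 (45.7%) held the core, and the other genes among these 16 overlapped between the batches. A link of the motif to the batch differences was not tested. Each stretch runs 5′ to 3′ along the gene's strand. They lie at chr3:108256750-108256799 on the plus strand (Psma5), chr12:100110153-100110201 on the plus strand (Psmc1), chr16:20651605-20651651 on the plus strand (Psmd2), chr14:14120963-14121012 on the minus strand (Psmd6), chr11:107479490-107479527 on the plus strand (Psmd12) and chr11:30771722-30771771 on the plus strand (Psme4), in GRCm38.p6.
Psma5: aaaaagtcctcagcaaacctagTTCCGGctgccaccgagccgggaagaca
Psmc1: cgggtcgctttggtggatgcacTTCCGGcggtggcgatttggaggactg
Psmd2: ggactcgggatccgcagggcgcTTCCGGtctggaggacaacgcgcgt
Psmd6: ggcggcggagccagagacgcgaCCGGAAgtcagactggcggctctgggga
Psmd12: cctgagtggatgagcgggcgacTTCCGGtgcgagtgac
Psme4: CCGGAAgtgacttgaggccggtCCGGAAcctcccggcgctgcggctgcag

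Of the 5 promoters with the antioxidant response element, those of the catalytic subunits Psmb5 and Psmb6 and of the ATPase Psmc6 are shown. They were picked because these 3 genes were higher in every aged than in every young library of batch 1. In aged vehicle of batch 2, Psmb5 and Psmb6 overlapped the young libraries. The others with the element, Psmd9 and Psmd12, overlapped between young and aged muscle of batch 1, with log2 differences of 0.01 and 0.08. A link of the element to these differences was not tested. Here the capitals mark that element or its complement. In GRCm38.p6 the stretches lie at chr14:54618012-54618064 on the minus strand (Psmb5), chr11:70525326-70525356 on the plus strand, ending at the last base before the start (Psmb6), and chr14:45329575-45329627 on the plus strand (Psmc6).
Psmb5: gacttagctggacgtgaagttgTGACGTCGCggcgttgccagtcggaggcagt
Psmb6: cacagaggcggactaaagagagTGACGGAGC
Psmc6: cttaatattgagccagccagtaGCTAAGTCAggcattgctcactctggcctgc

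The values rest on gene names that had to be put back on the deposited TPM, since names and values stood in different order. With the names sorted, mean TPM ranked the genes much as the mean counts of the authors' deposited table on SW033291 did (Spearman's rho 0.9497 over 23988 genes), and as deposited it did not (-0.0171). Genes are not independent replicates, and this describes only whether the names fit. TPM keep no read depth, so counting error is unknown, and 10710 to 11687 genes reached 1 TPM in each library. In bulk muscle, fewer cells of a type and less RNA per cell cannot be told apart. The muscle fibre markers (10 of 10 detected) summed to 146489 to 193041 TPM per library, lowest in aged vehicle replicate 4 of batch 1. The 8 red cell markers summed to 260 to 3759 TPM, highest in that library and next in aged vehicle replicate 2 of batch 2 (2179 TPM). The 9 neutrophil markers summed to 0.880 to 2.92 TPM in the young libraries. They reached 1761 TPM in aged vehicle replicate 4 of batch 1, 778 TPM in aged vehicle replicate 2 of batch 2 and 232 TPM in SW033291 replicate 4, and 0.870 to 22.2 TPM in the other aged libraries. Counts of genes whose groups did not overlap are therefore also given without those of these 3 libraries that a comparison uses. Other counts changed as well and are not all given that way.

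The subunits of the core and cap were abundant, with means of 76.3 to 529 TPM apart from Psmb10. On the TPM scale, which is per length of transcript, Psmb7, the trypsin-like catalytic subunit, was highest, with a mean of 529 TPM over the 13 libraries and a range of 482 to 650. The next were the lid subunit Psmd8 (mean 344 TPM, 262 to 414) and the ring subunit Psmb4 (mean 298 TPM, 254 to 344). Psmb7 lay above Psmd8 in every library, whereas Psmb4, Psmb5 (mean 297 TPM) and Psma6 (mean 288 TPM) had overlapping ranges. By mean level Psmb7 stood above 98.1% of the genes tested and Psmd14, the lid's deubiquitinase and the lowest of the core and cap subunits apart from Psmb10, still above 88.3% with 76.3 TPM.

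The base chaperones and the inducible Psmb10 were far lower, and the activators lay between them and most core and cap subunits. The assembly chaperones of the base, Psmd5, Psmd9 and Psmd10, had means of 15.7, 15.3 and 13.8 TPM. The activators Psme1 and Psme2, interferon-inducible subunits of PA28, had means of 55.3 and 43.1 TPM, Psme3, the nuclear PA28 gamma, 45.3 TPM, and Psme4 (PA200) 89.4 TPM. Psmb10, the inducible subunit that takes the place of Psmb7 in the immunoproteasome, had a mean of 9.71 TPM, above 49.9% of the genes tested. Psmc3ip, at 3.15 TPM, and Psme2b, at 2.76 TPM, were the lowest of the 41 genes.

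**Figure D1:**
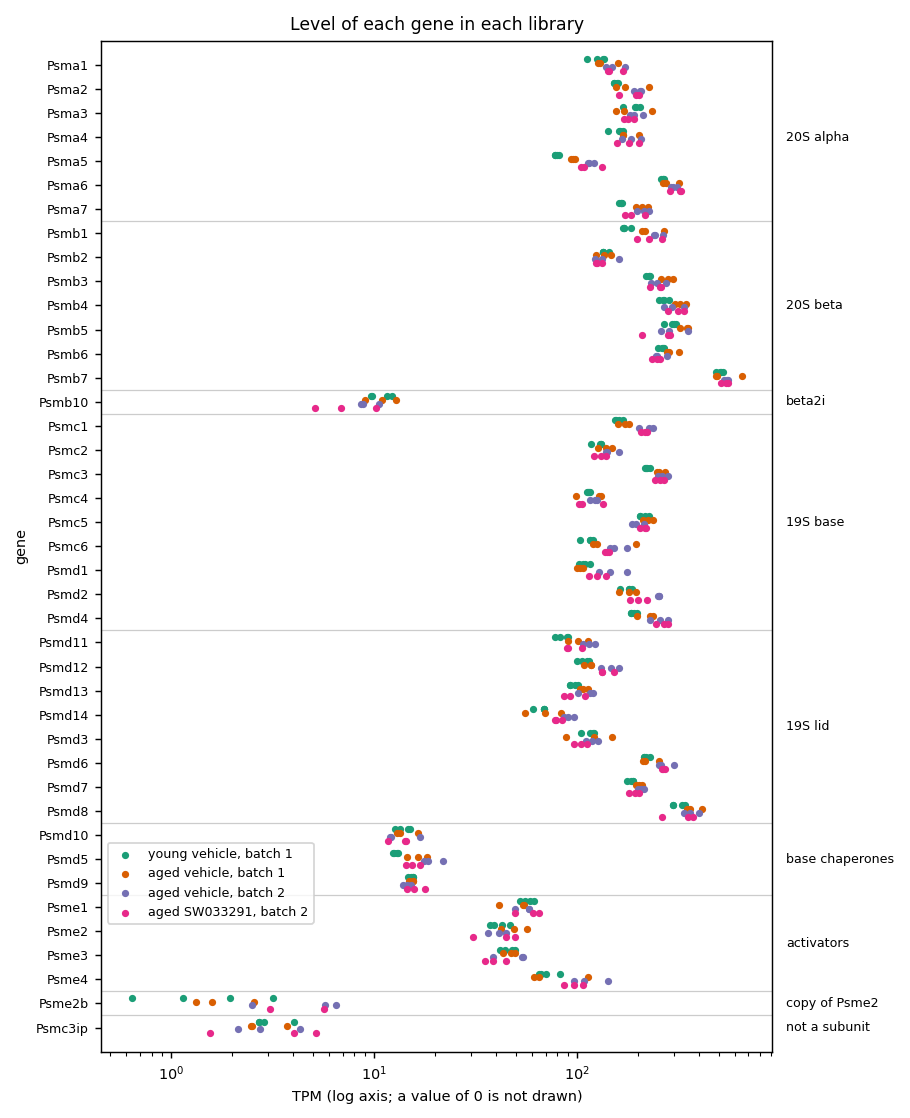
Level of each of the 41 genes in TPM (x, log axis) in each of the 13 libraries, 1 point per library coloured by group and genes ordered by class (y). Most core and cap subunits sit between 100 and 400 TPM, Psmb7 above them, and Psmb10 and the base chaperones near 10 TPM. The library in which Psme2b is listed at 0 is not drawn.

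Variation within groups was described for each gene. The median coefficient of variation (SD over mean) of the 41 genes was 5.25% in the young group, 9.81% in aged vehicle of batch 1, 8.88% in aged vehicle of batch 2 and 9.87% with SW033291. Over all genes tested the medians were 12.5%, 23.6%, 17.9% and 16.4%, and low genes vary more. Among genes with a mean of at least 50 TPM, the gap was smaller: the 33 proteasome genes had medians of 4.64%, 9.32%, 8.19% and 7.87%, and the 2001 genes of all kinds 7.06%, 14.6%, 9.13% and 9.55%. The ATPase Psmc4 had the smallest variation of the 41 genes in the young group (1.35%, n = 4) and the scaffold subunit Psmd2 in aged vehicle of batch 2 (0.750%, n = 3). The largest variation was that of Psme2b in the young group (64.2%), in aged vehicle of batch 2 (43.0%) and with SW033291 (97.4%), and that of Psme4 in aged vehicle of batch 1 (36.4%).

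Aged against young muscle within batch 1 asked how the transcripts of the proteasome differ with age. Most of the 41 genes had a higher mean in aged muscle, by small amounts, and none passed the test on its own. The summed level of the 41 genes was 5794, 5924, 6009 and 5850 TPM in the young libraries and 6381, 6475 and 6923 TPM in the aged ones, so the groups did not overlap. As a share of all TPM this was 0.579% to 0.601% in young and 0.638% to 0.692% in aged muscle. The summed muscle fibre markers were 182401 to 190964 TPM in young and 146489 to 177017 TPM in aged muscle, and the 6 fibroblast markers 375 to 439 TPM and 144 to 383 TPM. Their part in the difference was not tested. A total of 36 of the 41 genes had a positive log2 difference, as did 61.2% of all genes tested, and the median was 0.12 on the log2(TPM + 1) scale against 0.06 for all genes.

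The values of 14 genes were higher in every aged than in every young library, where 8.85% of all genes were, and none was lower in every aged library, where 2.70% of all genes were. These were the ring subunits Psma5, Psma7, Psmb1, Psmb3 and Psmb4, the catalytic Psmb5 and Psmb6, Psmc3, Psmc6 and Psmd4 of the base, Psmd7, Psmd8 and Psmd13 of the lid, and the chaperone Psmd5. None of the 41 reached an adjusted p under 0.05 in limma, where 0.455% of all genes did. In limma 10 genes, all higher with age, had an unadjusted p under 0.05, while 7.20% of all genes were higher at that threshold.

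These counts depended on how the libraries were scaled. When libraries were scaled by the median of ratios, 27 of the 41 genes were positive with a median of 0.04, and 5 were higher in every aged library and 1 lower, where 5.62% and 4.77% of all genes were. After quantile normalization 24 were positive, and without the 20 most abundant genes 23 were. Without aged replicate 4, the library with the most neutrophil transcripts, 30 were positive, the median was 0.10, and 19 were higher in every aged library and 2 lower, where 16.2% and 10.8% of all genes were.

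Among the alpha ring subunits, 6 of 7 were positive, with a median of 0.17, and 5 or 6 under the other scalings, with medians of 0.07 to 0.10. Psma7, a structural subunit of the ring, was at 161, 166, 166 and 165 TPM in the young libraries and at 196, 210 and 224 TPM in the aged ones. Each aged library was above all young libraries, by 0.35 on the log2 scale (SE 0.09, 1.27-fold, limma adjusted p = 0.14), and by 0.25 to 0.28 under the other scalings. Psma5, another structural subunit, was at 78.4, 79.7, 81.2 and 77.7 TPM in young and at 97.8, 96.0 and 93.1 TPM in aged muscle. The gap between the groups exceeded the spread within either, with a log2 difference of 0.27 (SE 0.09, limma adjusted p = 0.29). Psma3 had a difference of -0.05, and its groups overlapped, from 168 to 205 TPM in young and 156 to 233 TPM in aged muscle.

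The beta ring had the highest median difference of the classes of several genes, 0.22, with 6 of 7 genes positive, and 5 or 6 under the other scalings, with medians of 0.11 to 0.15. Psmb1, a ring subunit without a proteolytic site, was at 168, 171, 186 and 171 TPM in young and at 208, 216 and 270 TPM in aged muscle. All aged libraries were above all young ones, and aged replicate 4 was the highest. The log2 difference of Psmb1 was 0.40 (SE 0.11, 1.32-fold, limma adjusted p = 0.16), the largest of the 41 genes, and 0.29 to 0.33 under the other scalings. In the authors' deposited table of age, Psmb1 had a log2 fold change of 0.397 (SE 0.104) with an adjusted p of 0.00786.

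Psmb3, which has no proteolytic site either, was at 226, 228, 228 and 220 TPM in young and at 282, 258 and 297 TPM in aged libraries, a difference of 0.30 (SE 0.09, limma adjusted p = 0.17). Its groups were apart. Psmb4, the beta7 ring subunit, was 268 ± 12.3 TPM (SD, n = 4) in young and 324 ± 19.1 TPM (SD, n = 3) in aged muscle, a log2 difference of 0.27 (SE 0.10, limma adjusted p = 0.30). When aged vehicle libraries of both batches were pooled against the young ones, limma called Psma5, Psma7 and Psmb1 higher, with adjusted p of 0.048, 0.040 and 0.029, where 2.50% of all genes were called. That pooled comparison sets libraries of batch 2 against young libraries that are all of batch 1.

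None of the catalytic subunits was called, and Psmb5 and Psmb6 were higher in every aged library of batch 1 while Psmb7 overlapped. Psmb5, the chymotrypsin-like subunit and the main target of proteasome inhibitors used in myeloma, was at 300, 269, 294 and 307 TPM in young and 350, 351 and 323 TPM in aged muscle. The groups were apart, with a log2 difference of 0.22 (SE 0.13, limma adjusted p = 0.64). Psmb6, the caspase-like subunit, was at 252 to 268 TPM in young and 277 to 318 TPM in aged muscle, a difference of 0.16 (SE 0.08, limma adjusted p = 0.59). Psmb7 was at 482, 512, 525 and 504 TPM in young and at 488, 484 and 650 TPM in aged muscle. The groups of Psmb7 overlapped, since only aged replicate 4 was high, and the difference was 0.08 (SE 0.10).

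The inducible Psmb10 was at 12.3, 9.80, 9.66 and 11.6 TPM in young and at 8.99, 10.9 and 12.8 TPM in aged muscle, with overlapping groups and a log2 difference of 0.00 (SE 0.20). Psmb7 was 39.3 to 54.4 times as high as Psmb10 in the young libraries and 44.3 to 54.3 times in the aged ones. The log2 ratio of Psmb10 to Psmb7 was -5.43 ± 0.21 (SD, n = 4) in young and -5.51 ± 0.14 (SD, n = 3) in aged muscle (two-sided exact permutation p = 0.571 over 35 splits, smallest possible p = 0.057). The other inducible subunits were of similar level, Psmb8 at 5.05 to 12.2 TPM in young and 5.07 to 11.2 TPM in aged muscle, and Psmb9 at 2.29 to 8.09 TPM and 2.80 to 9.46 TPM. The summed leukocyte markers, of which 10 of 11 reached 1 TPM in an aged library of batch 1, were 44.3 to 92.2 TPM in young and 39.5 to 219 TPM in aged muscle. The part of leukocytes in the values of the inducible subunits was not tested.

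In the base of the cap, 8 of 9 genes were positive with a median of 0.09, and 4 to 6 under the other scalings, with medians of -0.01 to 0.02. Psmc6, an ATPase of the ring that threads proteins into the barrel, was at 103, 120, 116 and 116 TPM in young and at 120, 126 and 196 TPM in aged muscle, a difference of 0.34 (SE 0.14, limma adjusted p = 0.44). The groups touched without overlapping, and without aged replicate 4 the difference fell to 0.12. Psmd4, a receptor for ubiquitin chains, was at 191, 184, 197 and 184 TPM in young and at 230, 238 and 199 TPM in aged muscle. Each aged library of Psmd4 was above the young ones, by 0.23 (SE 0.10, limma adjusted p = 0.44). Psmd1, a scaffold of the base, was one of the 5 genes with a negative difference, -0.07 (SE 0.11), with 102 to 116 TPM in young and 100 to 107 TPM in aged muscle.

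All 8 lid subunits had positive differences, from 0.02 to 0.24, with a median of 0.10, and 4 or 5 did under the other scalings, with medians of 0.01 to 0.03. Psmd14, the deubiquitinase that frees substrates of ubiquitin, was at 61.0, 69.0, 68.7 and 69.2 TPM in young and at 55.5, 69.9 and 83.2 TPM in aged muscle. Its groups overlapped, with a difference of 0.04 (SE 0.12). Without aged replicate 4 or replicate 2 in turn, the difference of Psmd14 ranged to -0.10 and 0.19.

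Of the base chaperones, Psmd5 was at 12.3 to 13.1 TPM in the 4 young libraries and at 14.4, 16.5 and 18.3 TPM in the aged ones, a log2 difference of 0.34 (SE 0.12, 1.26-fold, limma adjusted p = 0.32). All aged libraries were above the young ones. The authors' deposited table of age lists Psmd5 with a log2 fold change of 0.357 (SE 0.129) and an adjusted p of 0.098. Psmd9 and Psmd10 had differences of 0.01 and 0.03.

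None of the activators passed the test. Psme1 was at 55.7, 61.7, 52.2 and 58.9 TPM in young and at 41.2, 53.9 and 54.7 TPM in aged muscle, the lowest difference of the 41 genes at -0.20 (SE 0.13, limma adjusted p = 0.70). Only aged replicate 2 lay below all young libraries. Its partner Psme2 was 41.5 ± 4.15 TPM (SD, n = 4) in young and 49.3 ± 7.24 TPM (SD, n = 3) in aged muscle, a difference of 0.24 (SE 0.16, limma adjusted p = 0.71). The ratio of Psme1 to Psme2, looked at after the values were seen, was 1.30 to 1.51 in young and 0.966 to 1.10 in aged muscle of batch 1. In aged vehicle of batch 2 it was 1.41, 1.11 and 1.59, which overlapped the young values. Psme3 had a difference of 0.02 and Psme4 of 0.11, the latter with 113 TPM in aged replicate 4 and 64.8 and 61.3 TPM in the other aged libraries. Psme2b and Psmc3ip had differences of 0.12 (SE 0.52) and -0.07 (SE 0.28), with overlapping groups.

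**Figure D2:**
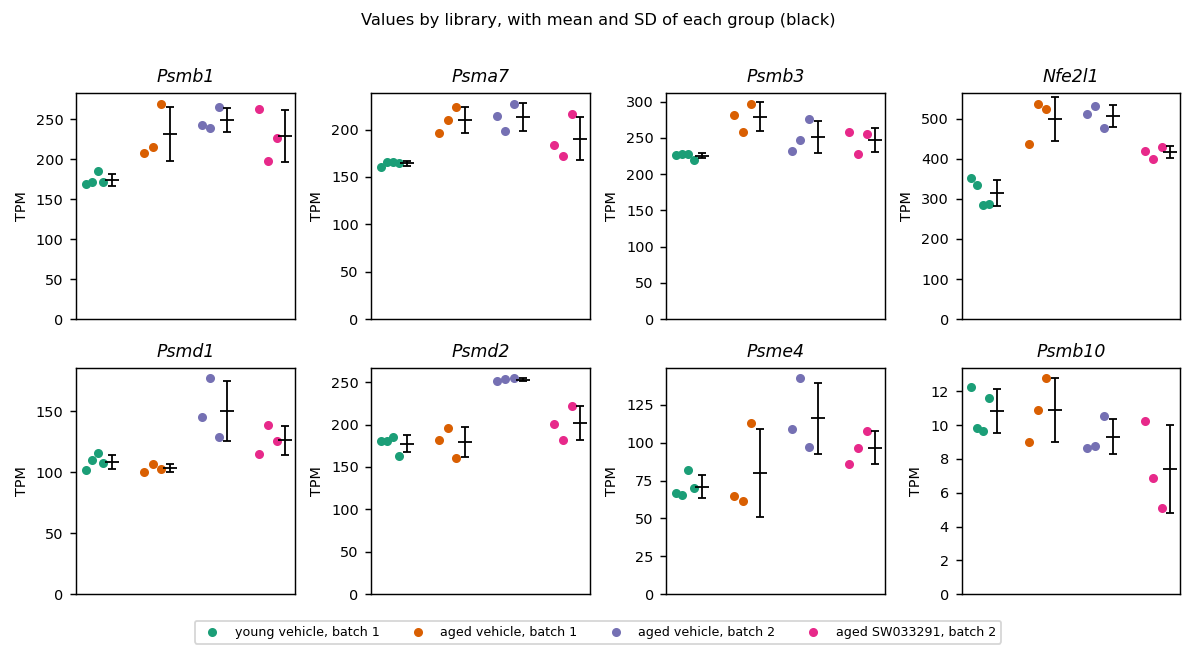
TPM (y, from 0) of Psmb1, Psma7, Psmb3, Nfe2l1, Psmd1, Psmd2, Psme4 and Psmb10 in each library, grouped as young vehicle, aged vehicle of batch 1, aged vehicle of batch 2 and aged SW033291, with the mean and SD of each group in black. Psma7 sits at 161 to 166 TPM in the young group and at 172 TPM or more in every aged library, of which those of batch 2 share no batch with the young ones, and Psmd2 at 251 to 254 TPM in aged vehicle of batch 2.

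Genes around the proteasome were compared between young and aged muscle of batch 1 as well. Nfe2l1, the transcription factor of subunit genes, rose with age, and was the only gene of 6 lists of related genes past the test. It was at 351, 335, 286 and 288 TPM in young and at 436, 538 and 524 TPM in aged muscle of batch 1. All aged libraries were above all young ones, by 0.66 on the log2 scale (SE 0.10, 1.58-fold, limma adjusted p = 0.011). Under the other scalings the difference was 0.55 to 0.59 and the call stood. It was lost when only the libraries of these 2 groups entered the fit (limma adjusted p = 0.073), and with the replicate number as a block (limma adjusted p = 0.87). In the authors' deposited table of age, Nfe2l1 had a log2 fold change of 0.550 (SE 0.091) and an adjusted p of 6.08e-07. Its relative Nfe2l2 was at 27.4 to 34.7 TPM in young and 25.5 to 31.7 TPM in aged muscle, with a difference of -0.01.

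By list, none of the 7 assembly factors and inhibitors passed in limma, 1 of 8 genes of transcription control did (Nfe2l1), and none of 15 associated proteins, 6 ubiquitin and E1 genes, 9 genes of the p97 unfoldase or 7 neighbours of the immunoproteasome did. Their median log2 differences were 0.13, 0.30, 0.05, 0.20, 0.02 and -0.07, in that order, and 0.06 over all genes. Pomp, the maturation factor of the core, was at 204 to 230 TPM in young and at 259 to 341 TPM in aged muscle, with groups apart and a difference of 0.42 (SE 0.12, limma adjusted p = 0.15). Ubxn4, of the p97 list, was at 29.2 to 32.1 TPM in young and at 37.8 to 44.2 TPM in aged muscle. Its groups were apart, with a difference of 0.44 (SE 0.11, limma adjusted p = 0.089). In the authors' deposited table of age, Ubxn4 had a log2 fold change of 0.450 (SE 0.115) and an adjusted p of 0.00595. With aged vehicle of both batches pooled, limma called it (adjusted p = 0.014), where 2.50% of all genes were called. The lowest of these lists was Tap2, a peptide transporter, at -0.37 (SE 0.24, limma adjusted p = 0.70).

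SW033291 against vehicle in aged muscle of batch 2 asked whether inhibition of 15-PGDH changes the transcripts. No proteasome gene passed the test. Most had a slightly lower mean with SW033291, as did most genes of the table. The summed level was 6731, 6979 and 7069 TPM with vehicle and 6795, 6124 and 6679 TPM with SW033291, with overlapping groups. A total of 8 of the 41 genes had a positive log2 difference against 28.9% of all genes. Their median was -0.11 and that of all genes -0.13.

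None of the 41 genes had an adjusted p under 0.05 in limma, and neither did any other gene tested (0%). In limma 3 had an unadjusted p under 0.05, all lower, where 10.3% of all genes were past that threshold. A total of 5 were lower in every SW033291 library than in every vehicle library, where 15.1% of all genes were: Psmc6, Psmd2, Psmd5, Psmd11 and Psmd14. None was higher in every library, where 1.95% of all genes were. After scaling by the median of ratios the direction turned, with 25 of the 41 positive, a median of 0.04, and 5 higher and 0 lower in every SW033291 library, where 6.06% and 6.05% of all genes were. Without the library with most neutrophil transcripts of each group, 10 were lower and 3 higher throughout, where 26.2% and 9.08% of all genes were.

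The authors' deposited table of SW033291 lists all 41 genes, 27 with a positive and 14 with a negative log2 fold change, a median of 0.05 and no p-value below 0.13. Its log2 fold changes were above those of the limma fit by a median of 0.15, and 37 of the 41 genes were within 0.1 of that offset. These 37 genes are defined by that margin, which is about the size of the median limma difference of -0.11, so a common shift was not tested.

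The differences named here are on the log2(TPM + 1) scale, and adding 0.13 sets them relative to the median of all genes. Psmd2, a scaffold of the base that binds ubiquitin carriers, was at 251, 254 and 254 TPM with vehicle and at 201, 182 and 222 TPM with SW033291. Every SW033291 library was below every vehicle library, by -0.33 (SE 0.10, 0.795-fold, limma adjusted p = 0.41), which is -0.20 relative to the median of all genes. The chaperone Psmd5 was at 18.4, 17.6 and 21.8 TPM with vehicle and at 16.8, 15.3 and 14.4 TPM with SW033291. Its groups were apart, with a difference of -0.29 (SE 0.13, limma adjusted p = 0.47). Psmd11, a lid subunit, was at 107, 115 and 123 TPM with vehicle and at 89.8, 90.0 and 106 TPM with SW033291, apart by a narrow margin, with a difference of -0.27 (SE 0.11, limma adjusted p = 0.46).

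Psmd14 was at 86.5, 96.9 and 90.7 TPM with vehicle and at 78.0, 78.4 and 84.4 TPM with SW033291, a difference of -0.18 (SE 0.13, limma adjusted p = 0.62). Among the catalytic subunits, Psmb7 differed by -0.02 (SE 0.11), Psmb6 by -0.07 (SE 0.09) and Psmb5 by -0.21 (SE 0.13), and the groups of each overlapped. Psmb10 was at 8.65, 8.78 and 10.5 TPM with vehicle and at 10.2, 6.88 and 5.11 TPM with SW033291. SW033291 replicates 4 and 6 were the lowest of the 13 libraries for Psmb10, and replicate 1 lay within the vehicle range. The difference was -0.34 (SE 0.21, limma adjusted p = 0.57), and leaving out single libraries moved it between -0.57 and -0.13.

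Of the activators, Psme3 was 48.7 ± 8.92 TPM with vehicle and 39.5 ± 4.90 TPM with SW033291 (SD, n = 3 each), a difference of -0.28 (SE 0.14, limma adjusted p = 0.51). Psme4 had a difference of -0.25 (SE 0.21), Psme2 of 0.01 and Psme1 of 0.08. The highest differences of the 41 genes were 0.13 for Psmd9, 0.12 for Psmc3ip, 0.10 for the ATPase Psmc5 and 0.08 for Psme1. The lowest was that of Psme2b, -0.90 (SE 0.56, limma adjusted p = 0.57), with 2.51, 5.74 and 6.47 TPM with vehicle and 5.66, 3.07 and 0 TPM with SW033291. Psmd4 was close to the vehicle level, with 268, 245 and 280 TPM against 229, 280 and 256 TPM.

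**Figure D3:**
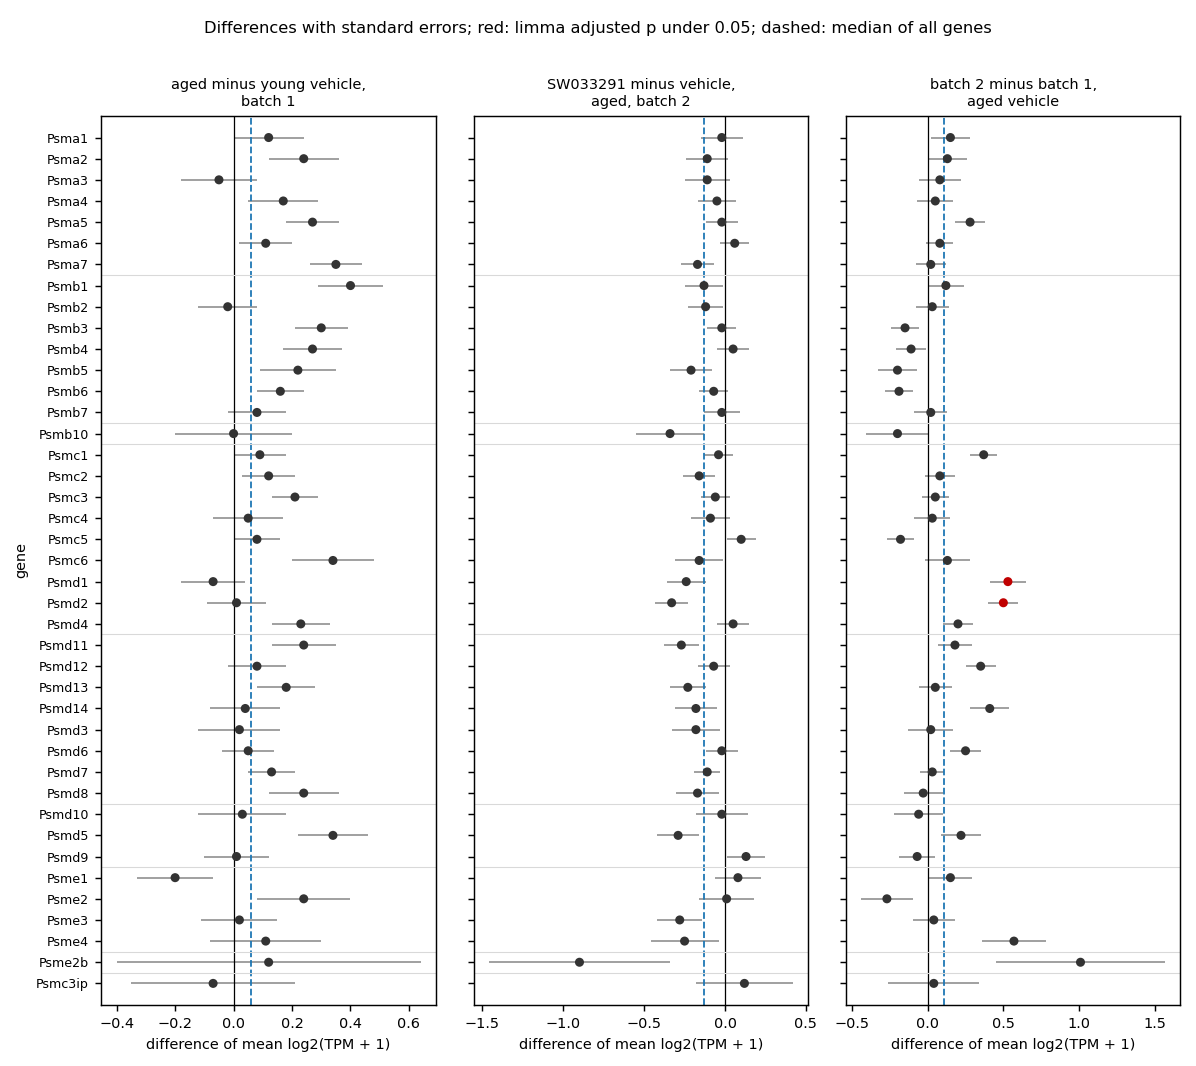
Difference of mean log2(TPM + 1) with its standard error (x) for each of the 41 genes (y) in the 3 comparisons, with the median of all tested genes as a dashed line and genes with a limma adjusted p under 0.05 in red. Points lie mostly right of 0 for age (36 of 41), left of 0 for SW033291 (33 of 41) and on either side of the dashed line for the batches, where Psmd1 and Psmd2 are red.

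Nfe2l1 was at 512, 532 and 478 TPM with vehicle and at 420, 400 and 429 TPM with SW033291. The groups were apart, with a difference of -0.28 (SE 0.11, limma adjusted p = 0.42). Pomp had a difference of 0.24 (SE 0.12, limma adjusted p = 0.52). No gene of the 6 related lists passed in limma, and 6 of their 52 genes had an unadjusted p under 0.05, all lower, where 10.3% of all genes had one in either direction. Among these lists the highest difference was that of Psmb9, 0.85 (SE 0.58, limma adjusted p = 0.61), and the lowest that of Ddi2, the protease that activates Nfe2l1, at -0.49 (SE 0.40, limma adjusted p = 0.66). Psmb9 was at 2.30, 0 and 4.50 TPM with vehicle and at 6.56, 2.55 and 2.93 TPM with SW033291.

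The aged vehicle libraries of the 2 batches carried the same age, strain and treatment in the labels, and differ there by batch alone. This comparison shares its libraries with both comparisons above. Psmd1 and Psmd2, the scaffolds of the base, rose in batch 2 (0.53 and 0.50 on the log2 scale, n = 3 against 3). They were 2 of the 41 genes called in limma, both higher in batch 2, where 2.25% of all genes were called in either direction. In limma 8 had an unadjusted p under 0.05, where 18.1% of all genes did. A total of 31 of 41 differences were positive against 64.2% of all genes, with a median of 0.05 against 0.11 for all genes. The summed muscle fibre markers did not overlap, with 146489 to 177017 TPM in batch 1 and 180143 to 181851 TPM in batch 2. Myh4, a myosin of fast IIb fibres, had a mean of 13131 TPM in batch 1 and of 30494 TPM in batch 2, a log2 difference of 1.21 (SE 0.16, limma adjusted p = 0.0061). Of the 10 fibre markers, 8 had positive differences and Myh4 alone was called. The abundant Acta1, Ckm, Tnnt3 and Tnni2 had differences of 0.02, 0.03, -0.04 and -0.09. The part of the fibre markers in the differences of the proteasome genes was not tested.

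The values of 7 genes were higher in every library of batch 2 than in every one of batch 1, where 11.9% of all genes were, and none was lower, where 4.64% of all genes were. These were Psma5, Psmc1, Psmd1, Psmd2, Psmd6, Psmd12 and Psmd14, 6 of them parts of the cap. With median-of-ratios scaling 3 were higher and 3 lower throughout, where 7.25% and 7.82% of all genes were, and the median of the 41 turned to -0.07. Without the library with most neutrophil transcripts of each group, 21 were higher and 3 lower throughout, where 36.4% and 15.2% of all genes were. The calls of Psmd1 and Psmd2 were lost with median-of-ratios scaling (1.21% of all genes called), with quantile normalization (0.825%) and when only the libraries of these 2 groups were fitted (0.00842%). Without aged vehicle replicate 4 of batch 1, 8 of the 41 genes were called, where 14.0% of all genes were. It was 1 without replicate 3 of batch 1 (1.57% of all genes), 0 without its replicate 2 (0.152%), and 0 without replicate 2 or replicate 3 of batch 2 (0.178% each). Without both libraries with most neutrophil transcripts it was 6, where 9.42% of all genes were called.

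Psmd2 was at 181, 196 and 161 TPM in aged vehicle of batch 1 and at 251, 254 and 254 TPM in that of batch 2. Each library of batch 2 was above all libraries of batch 1, by 0.50 (SE 0.10, 1.41-fold, limma adjusted p = 0.028), which is 0.39 above the median of all genes. Under the other scalings the difference of Psmd2 was 0.35 to 0.51. Psmd1 was at 100, 107 and 103 TPM in batch 1 and at 146, 177 and 129 TPM in batch 2. The batches were apart for Psmd1 by 0.53 (SE 0.12, 1.44-fold, limma adjusted p = 0.038), 0.42 above the median of all genes. The ATPase Psmc1 was at 173, 180 and 159 TPM and at 201, 236 and 227 TPM, with a difference of 0.37 (SE 0.09, limma adjusted p = 0.054).

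No gene of the lid was called. Psmd12, a lid subunit, was at 108, 117 and 118 TPM in batch 1 and at 147, 161 and 131 TPM in batch 2, a difference of 0.35 (SE 0.10, limma adjusted p = 0.094). Psmd14 was at 55.5, 69.9 and 83.2 TPM in batch 1 and at 86.5, 96.9 and 90.7 TPM in batch 2. Its groups were apart, with a difference of 0.41 (SE 0.13, limma adjusted p = 0.11). Psmd8, Psmd3 and Psmd7 had differences of -0.03, 0.02 and 0.03.

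No gene of the core was called. The beta ring had a median of -0.11, with 3 of 7 genes positive, and -0.26 to -0.10 under the other scalings, with 0 to 3 positive. The alpha ring had a median of 0.08, with 7 of 7 positive, and -0.06 to 0.09 under the other scalings, with 2 to 7 positive. Psmb5 was 341 ± 16.3 TPM in batch 1 and 298 ± 47.7 TPM in batch 2 (SD, n = 3 each), a difference of -0.20 (SE 0.13, limma adjusted p = 0.46). Psmb6 had a difference of -0.19 (SE 0.09, limma adjusted p = 0.29), Psmb10 of -0.20 (SE 0.21) and Psmb7 of 0.02 (SE 0.11). Psma5, at 93.1 to 97.8 TPM in batch 1 and 113 to 121 TPM in batch 2, was the alpha subunit with the largest difference, 0.28 (SE 0.10, limma adjusted p = 0.16).

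Psme4, which caps the core without the help of ATP, was at 64.8, 61.3 and 113 TPM in batch 1 and at 109, 142 and 96.9 TPM in batch 2. Aged replicate 4 of batch 1 lay among the values of batch 2, and the difference was 0.57 (SE 0.21, limma adjusted p = 0.16). Psme2 had the lowest difference of the 41 genes, -0.27 (SE 0.17, limma adjusted p = 0.44), and Psme2b the highest, 1.01 (SE 0.56, limma adjusted p = 0.36), with 1.33 to 2.57 TPM in batch 1 and 2.51 to 6.47 TPM in batch 2.

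**Figure D4:**
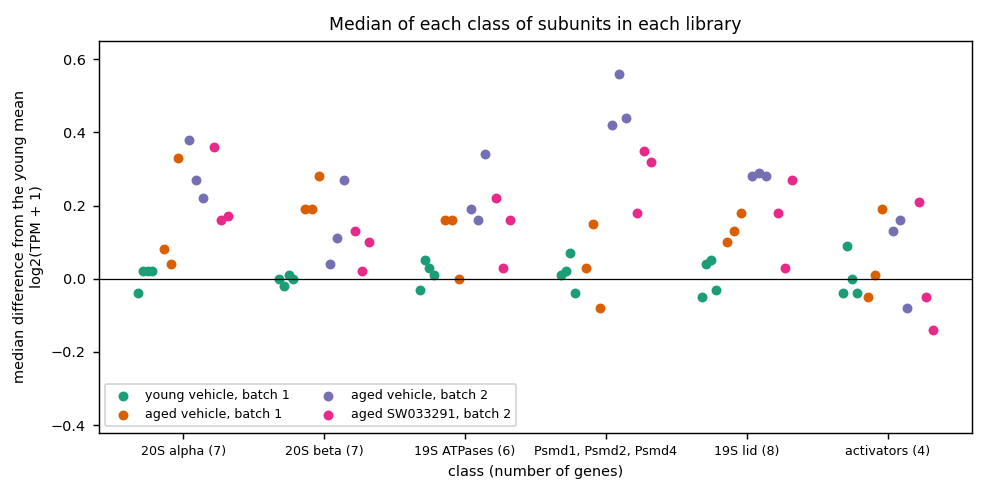
Median over the genes of each class (x, with the number of genes) of the difference of log2(TPM + 1) from the mean of the young libraries (y), 1 point per library. In aged vehicle of batch 2, Psmd1, Psmd2 and Psmd4 lie at 0.42 to 0.56, the ATPases of the base at 0.16 to 0.34 and the lid at 0.28 to 0.29. The beta ring lies at 0.04 to 0.27 there and at 0.19 to 0.28 in aged vehicle of batch 1.

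The levels were also summarised by class and library. Relative to the young mean, the beta ring had medians of 0.19, 0.19 and 0.28 in aged vehicle of batch 1 and of 0.04, 0.11 and 0.27 in that of batch 2. Psmd1, Psmd2 and Psmd4 together had medians of 0.03, 0.15 and -0.08 in batch 1 and of 0.42, 0.56 and 0.44 in batch 2. Psmd1 and Psmd2 are the genes called between these same batches, so this median restates their difference and describes no class. The 6 ATPases, the rest of the base, had medians of 0.16, 0.16 and 0.00 in batch 1 and of 0.19, 0.16 and 0.34 in batch 2. The lid had medians of 0.10, 0.13 and 0.18 in batch 1 and of 0.28, 0.29 and 0.28 in batch 2. These are differences from young libraries that all belong to batch 1, and the differences between classes were not tested.

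**Figure D5:**
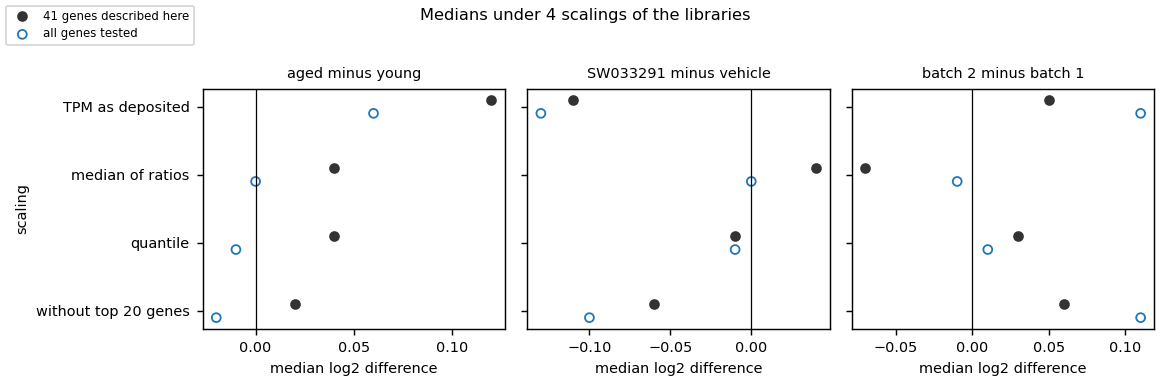
Median log2 difference (x) of the 41 genes (filled) and of all tested genes (open) under 4 scalings of the libraries (y), for the 3 comparisons. The median of the 41 genes is 0.12 for age with TPM as deposited and 0.02 to 0.04 with the other scalings, and it turns sign with median-of-ratios scaling for SW033291 (-0.11 to 0.04) and for the batches (0.05 to -0.07).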

How the data were processed

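RNA of whole quadriceps was measured in 13 libraries of 4 groups, as the labels give them. The tools STAR, RSEM, DESeq2 and DESeq and the build mm9 were used per the submitters' processing notes, with versions not given in the sources used here. For 24015 genes the authors deposited TPM. They also deposited tables of aged against young (813 genes, all with an adjusted p of at most 0.0999) and of SW033291 against vehicle (24013 genes). Per the file headers the columns are a log2 fold change and its SE, a p-value, a test statistic (a score per gene) and a mean of normalised counts (a signal). Which libraries entered them is not given in the sources used here. Among the names of the TPM values, 27 that looked like dates were restored to symbols and all names were sorted in byte order.

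Tests used limma 3.58.1 (R 4.3.3) on log2(TPM + 1). Genes had to reach 1 TPM in 3 or more libraries, which left 11876. The linear model had 4 group coefficients over the 13 libraries, and variances were moderated along a trend with expression. P-values were adjusted by Benjamini-Hochberg over all genes tested, with a threshold of 0.05, and the procedure was tested on simulated data. Fold changes are on the log2(TPM + 1) scale, which understates those of low genes. TPM keep no depth, so no counting intervals were given.

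The genes, lists and motifs were chosen with earlier results of these data known. Named were genes past the threshold, the 4 highest and 4 lowest differences of each comparison, the catalytic subunits, activators, Psmd4, Psmd14, the 3 highest and 3 lowest levels, and of related lists those called, Nfe2l1, Nfe2l2, Pomp, Psmb8, Psmb9 and the extremes. Genes whose groups did not overlap, and some with further values (Psma5, Psmb3, Psmd11, Psmd12), were named after their values were seen. The ratio of Psmb10 to Psmb7 had an exact permutation test (scipy 1.17.1). Groups share at most 2 replicate numbers, with nothing in the labels that pairs them, and were not paired. Alternatives were another pseudocount, no filter, 3 other scalings, fewer groups, a replicate block, pooled aged groups and leaving out each library.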

Additional observations from a re-analysis of the deposited data

Results flagged for a closer look

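In the young group, the only one with 4 libraries, 5 of the 41 genes had a library that stood far from the other 3 relative to the whole range. For a single gene, chance meets this check in about 1 in 20 groups. The share of all genes that meet it is not given here, and the genes share the same libraries. No excess among the proteasome genes can be read from this count. Replicate 4 was high for Psmb1, at 186 TPM against 168 to 171 TPM, and for Psmb2, at 145 TPM against 134 to 135 TPM. Replicate 1 was low for the ATPase Psmc2, at 118 TPM against 131 to 132 TPM, and for Psmd14, at 61.0 TPM against 68.7 to 69.2 TPM. It was high for Psmc3ip, at 4.02 TPM against 2.70 to 2.88 TPM. Without young replicate 4 the difference of Psmb1 with age stayed positive, since every fit that left out a single library gave 0.28 to 0.47.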

How the results depend on the processing

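With TPM as the only measure of level, depth sets no stated limit here, and small differences rest on the scaling. For age, 0 proteasome genes were called in every fit except when both batches of aged vehicle muscle were pooled (3). The median difference of 0.12 was 0.04 with median-of-ratios scaling, 0.04 with quantile normalization, 0.02 without the 20 most abundant genes, 0.19 with the pooled libraries and 0.10 to 0.17 when single libraries were left out. For SW033291, 0 were called in all fits run. The median of -0.11 reversed to 0.04 with median-of-ratios scaling, was -0.01 with quantile normalization and -0.14 to -0.06 when single libraries were left out. For the batches, the 2 calls became 0 with median-of-ratios scaling, 0 with quantile normalization, 0 with only the 2 groups, 0 to 8 when single libraries were left out and 6 without the library with most neutrophil transcripts of each group, an alternative chosen after seeing the data. The median of 0.05 reversed to -0.07 with median-of-ratios scaling and was 0.16 with that added alternative. The cause of these changes was not tested. The labels share only numbers between the groups, and same-numbered libraries had correlations of deviations of 0.040 and 0.171 for age and of -0.147 and -0.060 for the batches. With a replicate block, 0 genes were called for age (median 0.15), where 0.0505% of all genes were, and 3 for the batches, Psmd1, Psmd14 and Psme4, where 7.62% of all genes were, and the call of Nfe2l1 with age was lost (limma adjusted p = 0.87). No paired analysis was possible for SW033291 because its groups share no number.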

Other observations

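Genes of the p97 unfoldase, which extracts ubiquitin-tagged proteins and hands them to the proteasome, were also measured between the batches of aged vehicle muscle. In limma, 2 of its 9 genes were called, where 2.25% of all genes were, Nploc4 at 0.55 (SE 0.12, adjusted p = 0.034) and Faf1 at 0.48 (SE 0.10, adjusted p = 0.031), and Vcp itself had 0.52 (SE 0.14, adjusted p = 0.076). Of the other lists, Ubqln1, a shuttle for ubiquitin-tagged proteins, was called at 0.56 (SE 0.11, adjusted p = 0.025) and the transcription factor Stat3 at 0.92 (SE 0.21, adjusted p = 0.039). The lowest was Psmb9 at -1.35 (SE 0.58, adjusted p = 0.24). All of these are on the log2(TPM + 1) scale, where the median of all genes was 0.11, and the calls of Nploc4, Faf1, Ubqln1 and Stat3 were lost in 3 or 4 of the 6 fits that left out a single library. Each of these 4 calls was also lost with median-of-ratios scaling (limma adjusted p = 0.075 to 0.14), with quantile normalization (0.070 to 0.087) and when only the libraries of the 2 groups were fitted (0.32 to 0.36).

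The assembly factors Pomp and Psmg4 had negative batch differences that did not pass the test in the main fit, -0.48 (SE 0.12, limma adjusted p = 0.062) and -0.62 (SE 0.15, limma adjusted p = 0.054). With median-of-ratios scaling both passed, Pomp at -0.62 (limma adjusted p = 0.043) and Psmg4 at -0.75 (limma adjusted p = 0.033), where 1.21% of all genes did. With quantile normalization Psmg4 passed at -0.77 (limma adjusted p = 0.031), where 0.825% did. Each passed in 1 of the 6 fits that left out a single library. Pomp was at 259 to 341 TPM in aged vehicle of batch 1 and at 175, 218 and 232 TPM in that of batch 2.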
